A study of Mus musculus with 6 samples.

Results

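The proteasome subunit genes were taken as the protein coding genes whose symbol is Psm, a letter from a to g and then a number, and 48 of the 57180 genes in the count table met this rule (21400 of the 57180 are protein coding). A further 5 genes with such a symbol are pseudogenes, and *Psmb8*, *Psmb9* and *Psmb10*, which encode the immunoproteasome subunits, were kept apart and are given separately below. RNA was sequenced from osteoclast precursors (OCPs), grown from bone marrow-derived macrophages (BMDMs) of wildtype (WT) C57BL/6 mice and of mice with a knockout of the long noncoding RNA lincRNA-EPS (KO), with 3 libraries per genotype. Both genotypes received 40 ng/mL M-CSF alone for 24 h, then 40 ng/mL RANKL for 48 h, and no LPS before RNA was taken. The study's methods name M-CSF and RANKL as supplements of the same medium. The age and sex of the mice that gave these cells, and how many mice went into a library, were not given in the sources used here. The labels call the 3 libraries of a genotype biologically independent.

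The proteasome is the protease that degrades most short-lived proteins of the cell once they carry ubiquitin. Its 20S core is a barrel of alpha rings, built from Psma proteins, and beta rings, built from Psmb proteins, in which 3 kinds of beta subunit hold the active sites. The 19S cap, built from Psmc and Psmd proteins, binds ubiquitinated proteins, unfolds them with a ring of ATPases and feeds them into the core, and activators of the Psme family can take the place of the cap. In osteoclast precursors the proteasome degrades IκB, which sets NF-κB free downstream of RANK, and proteasome inhibitors are known to reduce osteoclast formation.

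By role, 16 of the 48 genes encode parts of the 20S core, 20 encode the 19S cap or the chaperones that assemble it, 5 encode activators, 4 (*Psmg1* to *Psmg4*) encode assembly chaperones of the core and 1 (*Psmf1*) encodes an inhibitor of the core. The last 2, *Psmc3ip* and *Psme3ip1*, are named after subunits that their products bind, and are not themselves subunits. Of the 48 genes, 47 passed the filter on low counts. The exception was *Psmb11*, the catalytic subunit of thymus epithelium, with 0 counts in all 6 libraries.

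The libraries held 17757351 to 19998611 counts each, with 19104 to 19701 genes detected. LincRNA-EPS itself (*Ttc39aos1* in the table) had 20, 37 and 41 counts in the WT libraries and 0, 0 and 0 in the KO libraries. Markers of macrophages were abundant in both genotypes, with a summed level of 16498 to 17638 CPM (counts scaled to a common library size) in WT and 14863 to 17667 CPM in KO libraries. All 8 were lower in KO, 5 at an unadjusted p under 0.05, a limit that 13.2% of all tested genes passed in this direction. Osteoclast markers summed to 5105 to 5523 CPM in WT and 6841 to 7269 CPM in KO, with 9 of 10 higher in KO (6 at that limit, against 13.0% of all tested genes). Of the 9 tested neutrophil genes 7 were higher, 6 at that limit (13.0% of all), and 2 lower, *Mpo* at that limit (13.2% of all) and *Elane* not. The sum of the neutrophil genes was 1336 to 1498 CPM in WT and 1795 to 2120.1 CPM in KO, while *Ly6g*, which defines mature neutrophils, lay between 0 and 0.251 CPM. Of 12 interferon-stimulated genes 11 were lower (5 at that limit, against 13.2% of all), at 212 to 224 CPM in WT and 159 to 173 CPM in KO. Lymphocyte markers stayed at 10.3 to 12.8 CPM and stromal and endothelial markers at 18.0 to 28.5 CPM over all libraries. The part of these differences in the levels of proteasome genes was not tested, and in RNA from a whole culture fewer cells of a type and less RNA per cell cannot be told apart.

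The level of proteasome genes was first compared per length, as CPM per kb of transcript, since longer transcripts give more reads. In WT cells the 2 highest were the catalytic subunits *Psmb6*, at 232 ± 19.9 CPM per kb, and *Psmb5*, at 206 ± 19.4 CPM per kb (mean ± SD, n = 3). Their libraries overlapped, at 210 to 248 CPM per kb for *Psmb6* and 186 to 225 CPM per kb for *Psmb5*. The third catalytic subunit, *Psmb7*, lay below both at 127 ± 14.8 CPM per kb, with libraries between 111 and 140 CPM per kb. Next after the highest pair came 2 subunits of the base and lid of the cap, *Psmd2* at 160 ± 2.13 and *Psmd8* at 156 ± 8.95 CPM per kb, whose libraries also overlapped.

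Without *Psma8*, the 14 tested core genes ran from 33.1 (*Psma3*) to 232 CPM per kb with a median of 110 CPM per kb. The 17 cap subunits without their chaperones ran from 40.7 (*Psmd11*) to 160 CPM per kb with a median of 70.4 CPM per kb. The chaperones build the particle but do not stay in it. Of those of the cap, *Psmd10* lay at 30.7 CPM per kb, with libraries between 27.8 and 33.7 that overlapped those of the core subunit *Psma3* (26.9 to 37.1), and *Psmd5* and *Psmd9* at 12.7 and 11.3 CPM per kb. The *Psmg* chaperones of the core lay at 14.7 to 19.7 CPM per kb. The lowest were *Psmf1* at 8.08, *Psmc3ip* at 7.17, *Psme2b* at 5.09 and the testis subunit *Psma8* at 0.897 CPM per kb. Transcript lengths came from GENCODE M21 on GRCm38 and not from the annotation behind the counts. They are those of the longest protein coding transcript, 2846 bases for *Psma3* and 2911 for *Psma2*, beside 1239 for *Psma5* and 1165 for *Psma4*. Before division by length these 4 had means of 94.3, 120, 104 and 109 CPM in WT. The low place of *Psma3* and *Psma2* per length thus depends on the transcript chosen, and others were not tried.

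**Figure D1:**
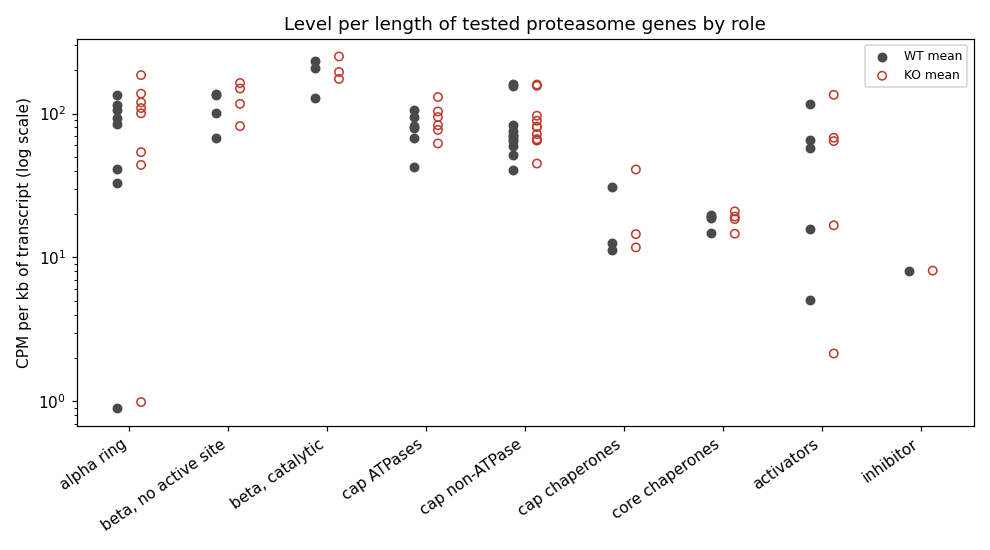
Mean level in CPM per kb of transcript (log axis) of the tested proteasome genes by role, with WT means filled and KO means open, and 1 point per gene (Psmc3ip and Psme3ip1 not drawn). Core and cap subunits other than Psma8 lie between 33.1 and 232 CPM per kb in WT, above the core chaperones at 14.7 to 19.7.

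Promoter sequence was available from RefSeq (GRCm38.p6) for 40 of the 48 genes, and the 250 bases before the annotated start were searched on both strands for 2 motifs. No window was available for *Psma8*, *Psmb1*, *Psmb2*, *Psmb7*, *Psmc3*, *Psmd3*, *Psmd7* and *Psmg2*. TGACNNNGC is the middle of the antioxidant response element, the kind of site bound by Nfe2l1, the factor known to raise proteasome genes when proteasome activity drops, and CCAAT is the box bound by NF-Y. The first was in 5 of 40 windows (12.5%), those of *Psmb5*, *Psmb6*, *Psmc6*, *Psmd9* and *Psmd12*, against 10.2% of the 32851 windows in the RefSeq table. It was in 2 of 12 windows of core genes and 3 of 17 of cap genes. CCAAT was in 15 of 40 windows (37.5%), against 33.8% of all windows, with 7 of 12 windows of core genes and 5 of 17 of cap genes. The core windows with CCAAT include that of *Psmb11*, which had no counts. A match is a description of letters, not a shown binding site. For each motif 2 core genes are shown, the motif in capitals, as 100 bases upstream of the earliest annotated start on the gene's own strand. They are *Psmb5* (chr14:54618023-54618122, minus strand) and *Psmb6* (chr11:70525257-70525356, plus strand) for the first motif, and *Psma2* (chr13:14613140-14613239, plus strand) and *Psmb3* (chr11:97703299-97703398, plus strand) for CCAAT.
Psmb5: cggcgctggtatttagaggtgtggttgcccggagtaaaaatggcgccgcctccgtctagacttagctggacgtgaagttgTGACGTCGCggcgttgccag
Psmb6: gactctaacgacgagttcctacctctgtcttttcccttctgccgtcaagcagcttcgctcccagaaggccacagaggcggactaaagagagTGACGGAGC
Psma2: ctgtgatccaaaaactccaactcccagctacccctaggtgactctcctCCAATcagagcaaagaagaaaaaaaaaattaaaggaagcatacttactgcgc
Psmb3: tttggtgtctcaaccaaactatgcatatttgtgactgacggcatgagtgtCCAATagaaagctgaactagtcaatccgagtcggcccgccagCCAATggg

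The comparison of genotypes asked which proteasome genes differed between KO and WT precursors before any inflammatory stimulus. Most were somewhat higher in KO cells. Of the 47 tested genes, 40 had a higher and 7 a lower fitted level in KO, where over all 13428 tested genes 6848 were higher and 6580 lower. The median log2 fold change of KO against WT was 0.20 over the proteasome genes and 0.01 over all tested genes. In edgeR's quasi-likelihood test with Benjamini-Hochberg adjustment over all tested genes, 0 of 47 passed an adjusted p under 0.01 with a fold change above 1.3, limits that 1 of 13428 genes passed (0.00745%), and the lowest adjusted p of a proteasome gene was 0.147. At an unadjusted p under 0.05, 13 of the 47 were higher in KO, against 13.0% of all tested genes, and 1 was lower, against 13.2% of all. DESeq2's Wald test passed 126 genes in all and 0 proteasome genes, with 14 higher at an unadjusted p under 0.05 (6.79% of the 24756 genes in that fit) and 1 lower (7.08%). It was fitted without the filter on low counts, which all 47 had passed, so its shares are not comparable with those above. At an adjusted p under 0.05 with no limit on fold, DESeq2 called *Psmb7* (0.0237) and *Psmd10* (0.0469), and edgeR called 0 of the 47. DESeq2 gave *Psme2b* and *Psma8* no adjusted p. The share of all genes at that limit was not worked out, so these calls cannot be set against it.

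In 20 of the 47 genes every KO library lay above every WT library, which held for 16.9% of all tested genes, and in 1 every KO library lay below, which held for 18.8% of all. The count of 13 depended on single libraries. It was 3 without WT replicate 2 (5.61% of all genes then), 5 without KO replicate 2 (9.50% of all) and 21 without KO replicate 1 (16.5% of all). The number of genes higher in KO at any p ranged from 38 to 43 over the 6 fits that each left out 1 library.

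**Figure D2:**
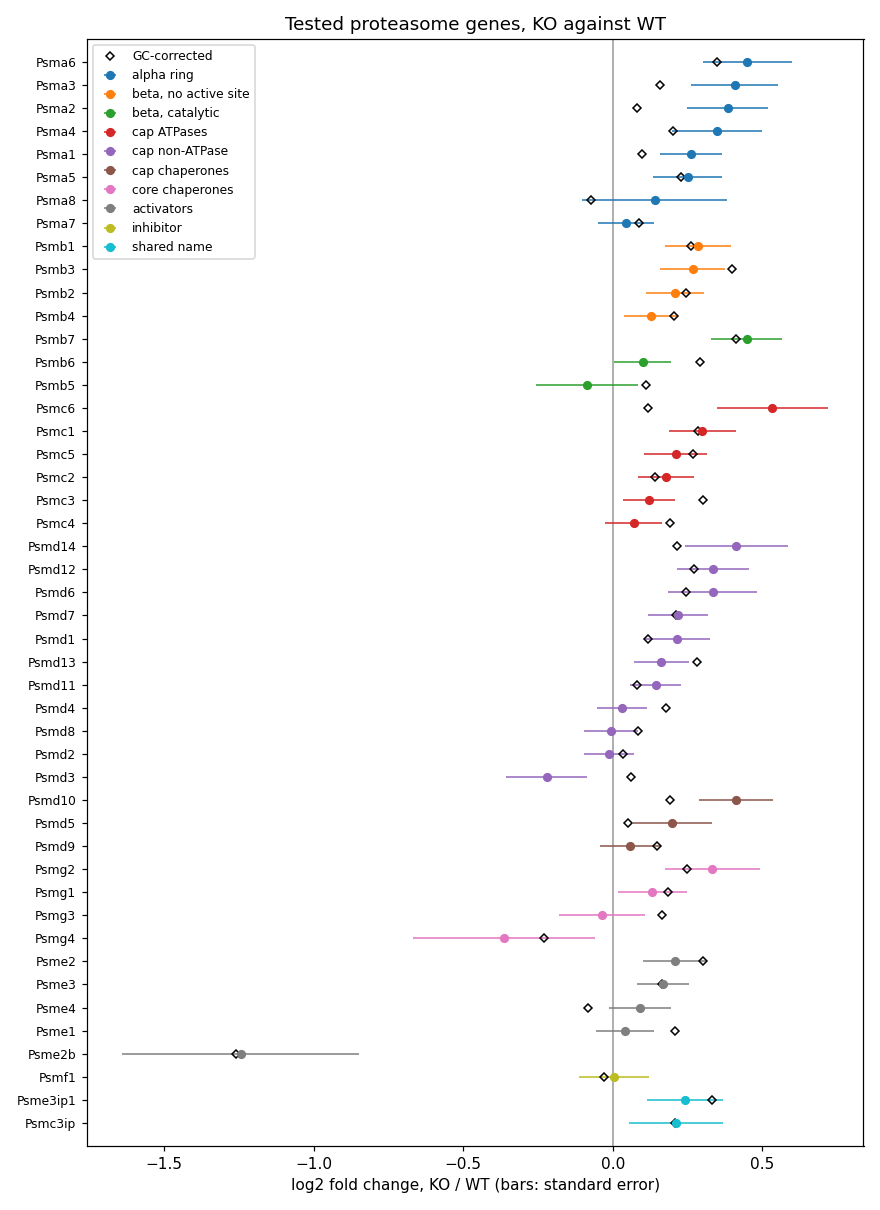
Log2 fold change of KO against WT for the 47 tested proteasome genes grouped by role, as filled points with bars of 1 standard error, with the value after correction for GC content as open diamonds. Of the filled points 40 lie right of 0, and Psme2b is the lowest at -1.24.

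Of the 15 tested 20S core genes 14 were higher in KO, 8 of them at an unadjusted p under 0.05 (13.0% of all tested genes), with a median log2 fold change of 0.26. Of the 20 cap genes 17 were higher, 5 at that limit, against the same 13.0%, with a median of 0.19. Of the 5 activators 4 were higher, none at that limit, with a median of 0.09. The groups were not tested against each other. Summed over its genes, the core had 1936, 1622 and 1943 CPM in WT libraries and 2003, 2274 and 2226 CPM in KO libraries, and the cap had 2874, 2813 and 2875 CPM in WT and 2932, 3168 and 3358 CPM in KO. In both sums every KO library lay above every WT library, with KO replicate 1 close to the WT libraries. The ratio of the core sum to the cap sum was 0.642 ± 0.0567 in WT and 0.688 ± 0.0277 in KO (mean ± SD, n = 3), and the libraries of the genotypes overlapped (0.674, 0.576 and 0.676 in WT, 0.683, 0.718 and 0.663 in KO).

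WT replicate 2 had the lowest level of 31 of the 47 genes, 13 of them among the 15 core genes. KO replicate 3 had the highest level of 25 genes, 14 of them among the 20 cap genes, and KO replicate 2 the highest level of 16. Against the mean of the WT libraries, the median core gene stood at 0.13, 0.34 and 0.31 on the log2 scale in the KO libraries, and at 0.09, -0.16 and 0.07 in the WT libraries. The median cap gene stood at 0.04, 0.17 and 0.30 in KO and at 0.02, -0.05 and 0.03 in WT. Without KO replicate 3 the median log2 fold change was 0.12 over all 47 genes, 0.22 over the core, 0.11 over the cap and 0.02 over the activators. Without WT replicate 2 these medians were 0.14, 0.18, 0.16 and 0.03.

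**Figure D3:**
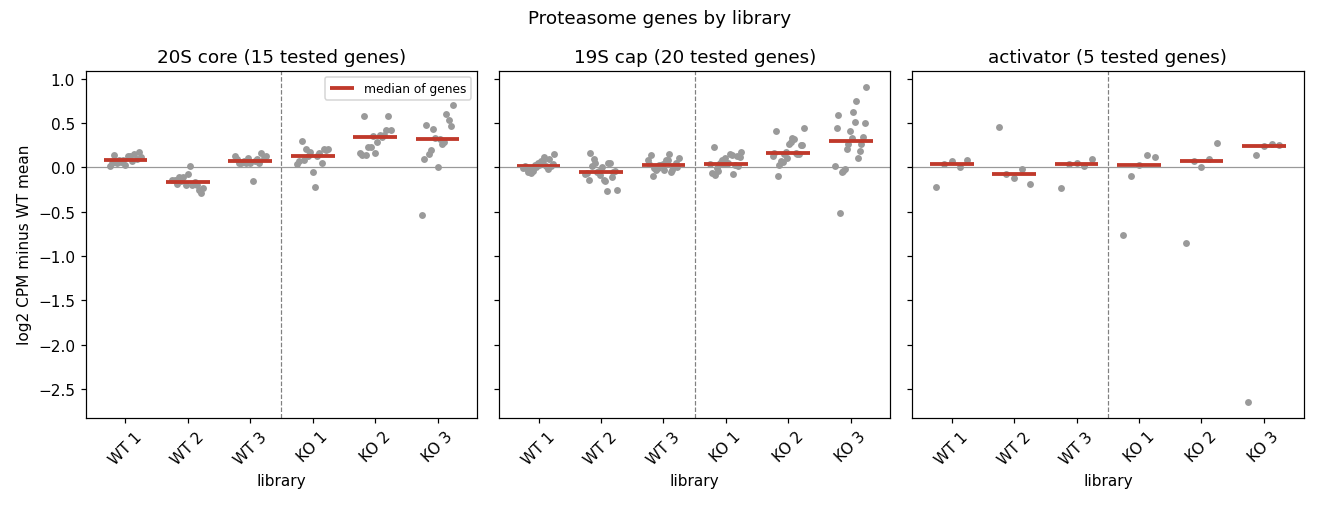
Level of each tested core, cap and activator gene in each library as log2 CPM minus the mean of the WT libraries, with 1 grey point per gene and a red line at the median. The medians of core genes are 0.13, 0.34 and 0.31 in KO 1, KO 2 and KO 3, and -0.16 in WT 2; the far low point among the activators in KO 3 is Psme2b.

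The 3 catalytic subunits of the core gave 2 positive and 1 negative fold change. *Psmb7*, which carries the trypsin-like activity, had 162, 129 and 152 CPM in WT and 180, 220 and 205 CPM in KO. All KO libraries were above all WT libraries. Its log2 fold change was 0.45 (SE 0.12), with an unadjusted p of 0.00448 and an adjusted p of 0.147, and it stayed between 0.36 and 0.53 when each library was left out in turn. *Psmb6*, the caspase-like subunit, had 191, 167 and 198 CPM in WT and 194, 204 and 198 CPM in KO, with a log2 fold change of 0.10 (SE 0.09), 0.03 without WT replicate 2, and overlapping libraries. *Psmb5*, the chymotrypsin-like subunit and main target of bortezomib, had 186, 167 and 202 CPM in WT and 190, 206 and 128 CPM in KO. Only KO replicate 3 was low, and the log2 fold change of -0.09 (SE 0.17) became 0.10 without it. The differences between the 3 fold changes were not tested.

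The beta subunits without active sites, *Psmb1* to *Psmb4*, were higher in all KO than in all WT libraries in 4 of 4 cases (16.9% of all tested genes), with log2 fold changes of 0.13 (*Psmb4*) to 0.28. With 1 library left out at a time *Psmb4* ranged from 0.08 to 0.15. *Psmb1* had 140, 115 and 142 CPM in WT and 149, 169 and 166 CPM in KO, a log2 fold change of 0.28 (SE 0.11, unadjusted p 0.0310, adjusted p 0.164 in edgeR). *Psmb3*, whose upstream stretch with 2 CCAAT boxes is printed above, had 108, 95.7 and 107 CPM in WT and 113, 121 and 140 CPM in KO, a log2 fold change of 0.27 (SE 0.11), which was 0.18 without KO replicate 3. The KO libraries began just above the highest WT library in both genes.

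The alpha subunits form the outer rings, which gate the entry to the core and bind the cap. All 8 were higher in KO, 5 at an unadjusted p under 0.05 (13.0% of all tested genes), with a median log2 fold change of 0.30. *Psma6* had 151, 119 and 153 CPM in WT and 161, 188 and 229 CPM in KO, a log2 fold change of 0.45 (SE 0.15, unadjusted p 0.0152, adjusted p 0.149 in edgeR). *Psma2* had 128, 99.6 and 134 CPM in WT and 138, 160 and 173 CPM in KO, a log2 fold change of 0.38 (SE 0.13). In both, WT replicate 2 was the lowest library and the genotypes did not overlap. *Psma3*, *Psma4* and *Psma1* had log2 fold changes of 0.41, 0.35 and 0.26 and *Psma7* one of 0.04, which ranged from -0.02 to 0.09 with 1 library left out at a time. That of *Psma4* was 0.21 without KO replicate 3. *Psma8*, which replaces *Psma7* in the testis, had 1.65, 1.53 and 1.36 CPM in WT and 1.302, 1.84 and 1.88 CPM in KO, levels at which the SE of its log2 fold change of 0.14 was 0.24, and after the GC correction the value was -0.07.

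The 6 ATPases of the cap, *Psmc1* to *Psmc6*, were all higher in KO, 2 at an unadjusted p under 0.05 (13.0% of all tested genes). *Psmc6* had 105, 79.7 and 102 CPM in WT and 107, 129 and 178 CPM in KO. KO replicate 3 was far above the rest and KO replicate 1 close to WT. The log2 fold change of 0.53, the largest of the proteasome genes before correction for GC content, had an SE of 0.19 and was 0.31 without KO replicate 3. *Psmc1* had 172, 163 and 169 CPM in WT and 183, 201 and 238 CPM in KO, a log2 fold change of 0.30 (SE 0.11), which was 0.19 without KO replicate 3.

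Of the 11 other cap subunits 8 were higher in KO, 2 at an unadjusted p under 0.05, a limit that 13.0% of all tested genes passed in this direction. *Psmd14*, the deubiquitinase of the lid that removes ubiquitin chains from the substrate, had 111, 84.8 and 114 CPM in WT and 113, 128 and 171 CPM in KO, and the libraries overlapped. Its log2 fold change was 0.41 (SE 0.17), and 0.22 without KO replicate 3, where its unadjusted p in edgeR was 0.1202. *Psmd12*, a structural subunit of the lid, had 106, 90.4 and 107 CPM in WT and 112, 127 and 144 CPM in KO, a log2 fold change of 0.34 (SE 0.12) with no overlap. The most abundant cap genes per length, *Psmd2* and *Psmd8*, had log2 fold changes of -0.01 and -0.01, which crossed 0 with 1 library left out (-0.03 to 0.01 and -0.05 to 0.04), and *Psmd3* had the lowest of the cap at -0.22, which was -0.09 without KO replicate 3.

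Of the 3 chaperones that build the cap all were higher in KO, and of the 4 that build the core 2 were. *Psmd10* (gankyrin), which holds the ATPase Psmc4 during assembly, had 43.7, 39.8 and 48.2 CPM in WT and 51.3, 58.2 and 65.7 CPM in KO. The genotypes did not overlap, and the log2 fold change was 0.41 (SE 0.12, unadjusted p 0.00879, adjusted p 0.147 in edgeR). *Psmd5* had 56.4, 53.4 and 57.2 CPM in WT and 53.4, 62.4 and 75.9 CPM in KO, a log2 fold change of 0.20 (SE 0.13) with overlap, which was 0.06 without KO replicate 3. Among the core chaperones, which pair with one another to assemble the alpha ring, *Psmg2* had 19.01, 17.5 and 20.7 CPM in WT and 19.9, 22.7 and 29.5 CPM in KO, and *Psmg4* had 11.3, 8.48 and 11.4 CPM in WT and 9.53, 10.7 and 4.12 CPM in KO. Their log2 fold changes were 0.33 (SE 0.16) and -0.36 (SE 0.31), both with overlap and neither at an unadjusted p under 0.05, and KO replicate 3 was the highest library of the one and the lowest of the other. Without it the values were 0.16 and -0.04.

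*Psme1* and *Psme2* encode the PA28 alpha and beta proteins, an interferon-inducible activator in the cytosol. *Psme1* had 75.3, 69.7 and 75.2 CPM in WT and 68.7, 77.0 and 80.6 CPM in KO, a log2 fold change of 0.04 (SE 0.10), which ranged from -0.01 to 0.11 with 1 library left out at a time and was 0.21 after the GC correction. *Psme2* had 119, 98.5 and 120 CPM in WT and 121, 135 and 133 CPM in KO, a log2 fold change of 0.21 (SE 0.11), 0.12 without WT replicate 2, with WT replicate 3 just below KO replicate 1. *Psme3*, the PA28 gamma activator of the nucleus, had 153, 151 and 154 CPM in WT and 168, 163 and 183 CPM in KO. Its libraries did not overlap, and its log2 fold change was 0.17 (SE 0.09). *Psme4*, which encodes the nuclear activator PA200, had 107, 93.9 and 105 CPM in WT and 104, 102 and 120 CPM in KO, a log2 fold change of 0.09 (SE 0.10), which was 0.02 without KO replicate 3, -0.08 after the GC correction and -0.04 with WT replicate 2 and KO replicate 3 both left out. *Psmf1*, which encodes the inhibitor PI31, had 29.1, 31.7 and 31.5 CPM in WT and 32.5, 33.4 and 26.6 CPM in KO, with a log2 fold change of 0.00 (SE 0.12) that ranged from -0.06 to 0.10 with 1 library left out at a time.

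*Psme2b* was the 1 proteasome gene that was lower in KO at an unadjusted p under 0.05. It had 3.56, 5.69 and 3.52 CPM in WT and 2.45, 2.30 and 0.662 CPM in KO, a log2 fold change of -1.24 (SE 0.40, unadjusted p 0.0123, adjusted p 0.147 in edgeR). Every KO library lay below every WT library, and KO replicate 3 was the lowest. Without WT replicate 2, the highest library, it no longer passed that limit, and with both of these libraries left out its log2 fold change was -0.57. GENCODE marks *Psme2b* as a retrogene, and the longest reading frames of *Psme2* and *Psme2b* are both 720 bases and differ at 5 of them (99.3% identity), so that reads can be split between them. Of all stretches of 100 bases in the *Psme2b* transcript, 52.0% are also in *Psme2*. The 60 coding bases that hold 3 of the 5 differences (bases 484 to 543 of the reading frame, GENCODE M21) are shown since such bases tell the copies apart, with the differing bases in capitals. The count of *Psme2b* is therefore uncertain. The summed level of both genes was 122, 104 and 123 CPM in WT and 124, 137 and 134 CPM in KO.
Psme2: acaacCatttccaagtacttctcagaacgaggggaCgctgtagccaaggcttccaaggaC
Psme2b: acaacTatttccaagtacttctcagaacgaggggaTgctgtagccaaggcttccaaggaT

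The differences between genotypes moved with the GC content of the transcripts. Over 13176 tested genes with a known transcript the log2 fold change had a Pearson correlation of -0.51 with GC content, and over the 47 proteasome genes one of -0.46, given as a description since genes of the same libraries are not independent. The libraries at the ends of this trend were WT replicate 2, in which deviations from the mean of the 6 libraries correlated with GC content at 0.53, and KO replicate 3, at -0.57. The proteasome genes as a group were not GC-poor, with a median of 49.7% against 49.6% over all tested genes, and ran from 37.0% (*Psmc6*) to 58.3% (*Psmd3*). With all 6 libraries the highest log2 fold change and the lowest of the cap thus belonged to the genes at the 2 ends of this range.

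After each library was corrected for GC content, 42 of 47 proteasome genes were higher in KO, where 6679 of the 13428 tested genes were. The median log2 fold change was 0.19 over all 47, 0.20 over the core, 0.18 over the cap and 0.16 over the activators. In edgeR, 19 were higher at an unadjusted p under 0.05, against 12.5% of all tested genes, and 1 was lower, against 14.0% of all. None of the 47 passed both limits, and the lowest adjusted p was 0.0667, that of *Psmb7*. DESeq2 with the same correction passed *Psmb7* alone among the proteasome genes, with a log2 fold change of 0.41 and an adjusted p of 0.00382, and 358 genes in all. This fit covered 13425 genes after the filter on low counts and not 24756, so it differs from the DESeq2 fit above by more than the correction. At an adjusted p under 0.05 with no limit on fold it also called *Psma6*, *Psmb3*, *Psmc1* and *Psmc3*, higher in KO, and *Psme2b*, lower in KO. The share of all genes at that limit was not worked out. Before the correction DESeq2 gave *Psme2b* an unadjusted p of 0.00583 but no adjusted p. Its log2 fold change in DESeq2 was -1.24 before and -1.26 after the correction. With both WT replicate 2 and KO replicate 3 left out, an alternative chosen after seeing the data, 42 of 47 were higher, 9 of them at an unadjusted p under 0.05 (8.98% of all genes then), and the medians were 0.10 over all 47, 0.14 over the core, 0.09 over the cap and -0.04 over the activators.

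The correction left a similar median but other genes behind it. Of the 13 genes higher at an unadjusted p under 0.05 before it, 7 were also among the 19 after it: *Psma6*, *Psmb1*, *Psmb3*, *Psmb7*, *Psmc1*, *Psmd10* and *Psmd12*. The 6 that were not (*Psma1* to *Psma4*, *Psmc6* and *Psmd14*) have 37.0% to 44.98% GC. The 12 that came in have 49.2% to 55.8% GC and include *Psmb6*, *Psmb2*, *Psmb4*, *Psmc3* and *Psme2*. The log2 fold change of *Psmc6* went from 0.53 to 0.12, that of *Psma2* from 0.38 to 0.08, and the median of the alpha subunits from 0.30 to 0.13. Among the 7 in both, *Psmd10* went from 0.41 to 0.19, *Psma6* from 0.45 to 0.35, *Psmd12* from 0.34 to 0.27 and *Psmb3* from 0.27 to 0.40. The adjusted p of *Psmd10* in DESeq2 went from 0.0469 to 0.197, where the set of genes fitted changed as well. The others of the 7 moved less, *Psmb7* from 0.45 to 0.41, *Psmc1* from 0.30 to 0.29 and *Psmb1* from 0.28 to 0.26. *Psmb5* went from -0.09 to 0.11, so that all 3 catalytic subunits were then higher in KO, and 34 of the 35 tested core and cap genes were, *Psma8* being the exception. The correction takes its curve from the same libraries, and a difference between genotypes that runs with GC content would be removed with it.

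**Figure D4:**
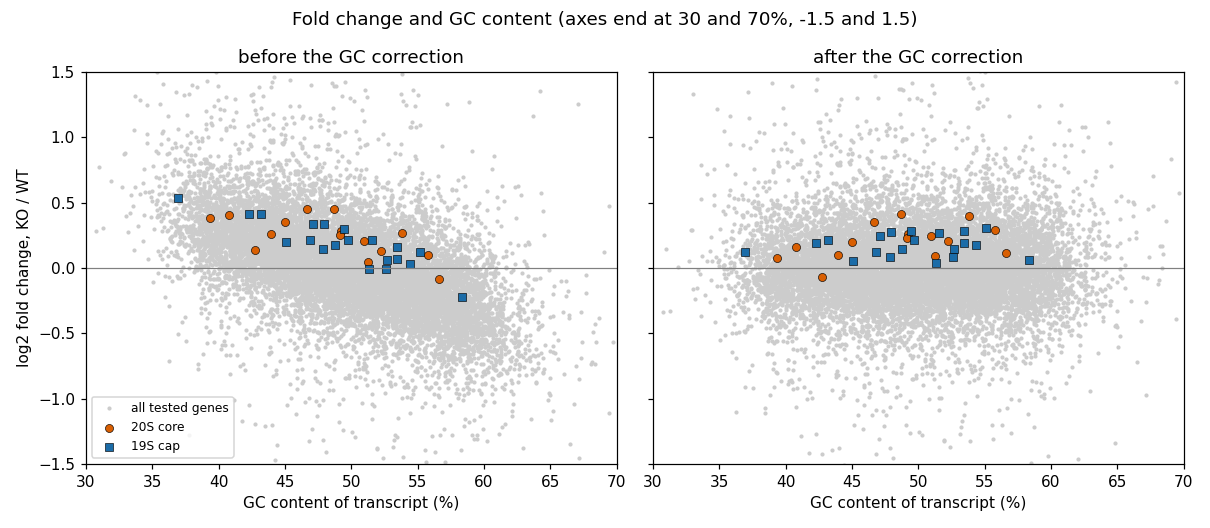
Log2 fold change of KO against WT over the GC content of the transcript (%), before (left) and after (right) correction of each library for GC content, with all tested genes in grey, core genes as orange circles and cap genes as blue squares. The Pearson correlation over all tested genes is -0.51 on the left and -0.02 on the right; on the right 34 of the 35 core and cap genes lie above 0.

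The immunoproteasome subunits, which interferon induces and which replace the catalytic subunits of the core, gave 1 higher and 2 lower values in KO. *Psmb8*, which takes the place of *Psmb5*, had 109, 96.6 and 102 CPM in WT and 102, 110 and 102 CPM in KO, a log2 fold change of 0.03 (SE 0.09). *Psmb9*, in place of *Psmb6*, had 29.9, 27.2 and 28.0 CPM in WT and 25.7, 28.2 and 20.4 CPM in KO, a log2 fold change of -0.20 (SE 0.13). *Psmb10*, in place of *Psmb7*, had 43.9, 43.6 and 44.6 CPM in WT and 39.2, 44.9 and 34.4 CPM in KO, a log2 fold change of -0.16 (SE 0.12). None of the 3 passed an unadjusted p under 0.05, and their libraries overlapped. Without KO replicate 3 *Psmb9* and *Psmb10* were at -0.08 and -0.07. After the GC correction the values of the 3 were 0.22, -0.03 and 0.06.

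Of 35 further genes of the ubiquitin and proteasome pathway, listed by function, 34 were tested, and 20 were higher and 14 lower in KO. At an unadjusted p under 0.05, 8 were higher, against 13.0% of all tested genes, and 4 lower, against 13.2% of all, and the median log2 fold change was 0.06. After the GC correction 7 were higher (12.5% of all tested genes) and 4 lower (14.0% of all) at that limit, with a median of 0.02. The 3 with the smallest p were *Keap1*, *Txnl1* and *Zfand5*. *Keap1*, the adaptor that marks the stress factor Nfe2l2 for degradation by the proteasome, had 68.5, 82.9 and 74.9 CPM in WT and 59.9, 55.8 and 42.7 CPM in KO, a log2 fold change of -0.51 (SE 0.14, unadjusted p 0.00526, adjusted p 0.147 in edgeR). *Txnl1*, a thioredoxin-like protein bound to the cap, had 93.1, 80.8 and 96.2 CPM in WT and 108, 118 and 143 CPM in KO, a log2 fold change of 0.45 (SE 0.12). *Zfand5*, which binds the proteasome and stimulates it, had 206, 189 and 204 CPM in WT and 232, 248 and 269 CPM in KO, a log2 fold change of 0.32 (SE 0.09). In all 3 the genotypes did not overlap. After the GC correction the values were -0.25, 0.13 and 0.02, and only *Keap1* was still at an unadjusted p under 0.05.

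By function, the 3 assembly factors with other names (*Pomp*, *Akirin2* and *Ecpas*) were all higher in KO, 2 at an unadjusted p under 0.05 (13.0% of all tested genes). After the GC correction 2 were higher at that limit too (12.5% of all). Of the 5 tested genes that control proteasome transcription (*Nfe2l1*, *Nfe2l2*, *Ddi2*, *Ngly1* and *Keap1*) 4 were lower, 3 of them at that limit (13.2% of all tested genes), with a median log2 fold change of -0.25. After the GC correction 3 were again lower at that limit (14.0% of all), with *Nfe2l2* in place of *Nfe2l1*, and the median was -0.16. The list joins *Keap1* with Nfe2l2, against which it acts, so the median gives no direction of proteasome transcription. Both deubiquitinases of the cap with other names (*Usp14* and *Uchl5*) were higher at that limit (13.0% of all), and neither was after the GC correction (12.5% of all). Of the 8 genes of the Vcp unfoldase, which extracts proteins for the proteasome, 6 were higher, 1 at that limit (13.0% of all). After the GC correction 2 were higher at it (12.5% of all). Of 9 shuttle factors, which bring proteins to the proteasome and include *Ddi2* again, 4 were higher and 5 lower, 2 each way at that limit (13.0% of all higher, 13.2% lower). After the GC correction 0 were higher (12.5% of all) and 1 lower (14.0%) at that limit. Of 6 genes for ubiquitin and its activating enzymes 3 were higher (1 at that limit, 13.0% of all) and 3 lower. After the GC correction 2 were higher (12.5% of all) and 1 lower (14.0%) at that limit. Of the 2 further cap subunits with other names (*Adrm1* and *Sem1*) 1 was higher and 1 lower, neither at that limit. None of these genes passed both limits.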

How the data were processed

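RNA-seq libraries of WT and *lincRNA-EPS* KO osteoclast precursors were compared, with 3 per genotype, grouped by their labels. The authors deposited 1 table of estimated counts per gene, not normalized, of which 25.1% to 26.6% of the values above 0 in a library were not whole. The submitters' processing notes name fastp, HISAT2, StringTie, RSEM and the build GRCm39, without versions. The authors' mean for each genotype in the table was not used.

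The counts were rounded to whole numbers. In R 4.3.3 with edgeR 4.0.16, genes were kept by filterByExpr, libraries were scaled by TMM, and KO was compared with WT by glmQLFit (legacy = FALSE) and glmQLFTest over all genes kept, two-sided, without covariates, with Benjamini-Hochberg adjustment. SE is the fold change divided by the root of F. CPM are TMM-scaled. The limits were an adjusted p under 0.01 and a fold change above 1.3, as the lines of the study's volcano plot are drawn. The legend of its heatmap instead writes 1.3 as a limit on the log2 scale, and which no proteasome gene reached in the edgeR fit described here. GC content and length came from the longest protein coding transcript in GENCODE M21, and the GC correction fitted a natural spline with 5 df per library, used as an offset. DESeq2 1.42.0 and limma 3.58.1 gave alternatives. DESeq2 was fitted to every gene with a count, but with the GC correction only to the genes kept by filterByExpr. The scripts were tested on simulated data.

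The genes, the lists and the limits were chosen with earlier results of these data known. Values in every library are given for the catalytic genes, the activators and *Psmf1*, for the 2 genes with the smallest p and the gene with the largest SE of each other role, for the immunoproteasome genes and for the 3 further pathway genes with the smallest p. *Paaf1*, on 1 list, was not analysed here. Between replicates, chi-square per degree of freedom was 3.59 to 63.2, so no 2 libraries agreed within sampling noise. Deviations of libraries with the same replicate number correlated at -0.19, 0.06 and 0.14, so the numbers were not taken as pairs.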

Additional observations from a re-analysis of the deposited data

How the results depend on the processing

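Over the alternatives (other scaling, DESeq2, edgeR's legacy test, limma-voom, other filters, the replicate block, the GC correction, each library left out), 0 proteasome genes passed both limits in every fit except DESeq2 with the GC correction, which passed 1 (*Psmb7*) and put 20 genes higher at an unadjusted p under 0.05 (11.04% of all genes then). Adjusted p under 0.05, with or without the fold limit, gave 0 in edgeR, while with no fold limit DESeq2 called *Psmb7* and *Psmd10*, and DESeq2 with the GC correction *Psma6*, *Psmb3*, *Psmb7*, *Psmc1*, *Psmc3* and *Psme2b*. DESeq2 without the correction gave *Psme2b* no adjusted p. The shares of all genes at this limit were not worked out. With 1 library left out at a time, the genes higher at an unadjusted p under 0.05 ranged from 3 to 21 and those lower from 0 to 1. With WT replicate 2 and KO replicate 3 both left out, chosen after seeing the data, the medians moved to 0.0999 over all 47 genes, 0.0895 over the cap and -0.0413 over the activators. With the replicate number as a block, which the data do not bear out as a pairing, 14 genes were higher at an unadjusted p under 0.05 (12.6% of all genes then), 39 at any p and 0 passed both limits. The cause of these differences was not tested. Genes in all that passed both limits were 1 in the reported fit, 4 with the GC correction, 126 with DESeq2 (of 24756), 358 with DESeq2 and the GC correction (of 13425), 0 to 2 with 1 library left out and 8 with both left out.

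Of 504 values of 28 named genes, 29 changed sign. With the GC correction in edgeR, in edgeR with the replicate block and in DESeq2 the log2 fold change was 0.110, 0.113 and 0.113 for *Psmb5*, -0.0824, -0.0825 and -0.0799 for *Psme4*, -0.0307, -0.0372 and -0.0283 for *Psmf1*, -0.0716, -0.0735 and -0.0693 for *Psma8*, and 0.0555, 0.0551 and 0.0578 for *Psmb10*. *Psmf1* was -0.0110 by library size alone, -0.00384 with limma-voom, -0.00795 without a filter and -0.00223 with the replicate block. With 1 library left out it ranged from -0.0579 to 0.0996 for *Psmf1*, from -0.224 to 0.0973 for *Psmb5*, from -0.0103 to 0.106 for *Psme1* and from -0.00964 to 0.0751 for *Psmb8*. With WT replicate 2 and KO replicate 3 both left out it was 0.0291 for *Psmb5*, -0.0464 for *Psme1* and -0.0413 for *Psme4*. *Psma8* had only 25 to 37 counts in a library.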
